A study of Mus musculus with 24 samples.

Results

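The genes described here are the subunits of laminins and of integrins, taken from the deposited count table by gene symbol: laminin chains named Lama, Lamb or Lamc, integrin alpha subunits named Itga and integrin beta subunits named Itgb. Of the 53946 genes in the table, 37 met this rule, 11 laminin and 26 integrin genes (18 alpha and 8 beta subunits), and all 37 had counts. The rule itself reads gene names alone. The RNA came from ventral otocysts, which hold the cochlea, of C57BL/6J x 129X1/SvJ mouse embryos at day 14.5. All 4 groups carried the ribosomal protein L10a fused to eGFP in cells of the Fgf20-Cre lineage. TRAP (translating ribosome affinity purification) libraries hold RNA pulled down with such tagged ribosomes, so they enrich that lineage, and pre-TRAP libraries are read here from their name as RNA taken before the pull-down. The groups were TRAP het (Fgf20+/-, n = 8), TRAP mut (Fgf20-/-, n = 8), pre-TRAP het (Fgf20+/-, n = 4) and pre-TRAP mut (Fgf20-/-, n = 4). Each library pooled 3 to 7 embryos of the same genotype, and every group was divided evenly between experiment 1 and experiment 2. The controls are thus themselves heterozygous for Fgf20, and no library without an Fgf20 mutation was analysed here.

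Laminins are secreted heterotrimers of an alpha, a beta and a gamma chain that polymerise into the sheet on which basement membranes are built. Integrins are transmembrane receptors made of an alpha and a beta subunit; the pair decides which matrix or cell surface protein is bound. In the developing inner ear, epithelium and neurons rest on or grow through laminin-rich matrix, while mesenchyme, vessels and blood cells each carry integrins of their own. FGF20 is a ligand secreted by the cochlear prosensory epithelium, and its loss in mice leaves the outer part of the organ of Corti short of cells.

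The stretches of 250 bases upstream of a transcript start are printed for the members with the largest rises and the largest falls in TRAP RNA that had such a window within 100 bases of the annotated gene start and a mean of at least 2 CPM in the higher kind of RNA. They are shown to put the upstream sequence of subunits that moved in opposite directions side by side. The sequences are those of RefSeq for GRCm38.p6, written 5′ to 3′ on the gene's strand, which is the minus strand for all 4: Itgb6 at chr2:60722604-60722853, Itga8 at chr2:12301945-12302194, Itga5 at chr15:103366792-103367041 and Itga1 at chr13:115101965-115102214. Capitals mark a GC box, a CCAAT box, a TATA box, an AP-1 motif or an E box, searched on both strands, and no base fell in more than 1 motif. The GC box was searched as GGGCGG and the CCAAT box by the letters of its name. The TATA box was searched as TATAAA, the AP-1 motif as TGA and TCA with any 1 base between them, and the E box as CANNTG, with N for any base.
Itgb6: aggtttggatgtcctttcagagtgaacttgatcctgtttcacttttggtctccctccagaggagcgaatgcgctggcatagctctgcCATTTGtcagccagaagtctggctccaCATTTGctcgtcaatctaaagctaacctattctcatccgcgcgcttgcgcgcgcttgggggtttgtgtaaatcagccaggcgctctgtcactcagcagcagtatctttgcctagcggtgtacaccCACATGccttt
Itga8: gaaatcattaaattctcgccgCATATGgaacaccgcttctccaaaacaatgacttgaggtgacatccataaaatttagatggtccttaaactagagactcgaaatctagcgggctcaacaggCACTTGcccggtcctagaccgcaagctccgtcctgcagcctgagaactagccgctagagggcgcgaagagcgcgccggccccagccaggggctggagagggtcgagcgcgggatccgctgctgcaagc
Itga5: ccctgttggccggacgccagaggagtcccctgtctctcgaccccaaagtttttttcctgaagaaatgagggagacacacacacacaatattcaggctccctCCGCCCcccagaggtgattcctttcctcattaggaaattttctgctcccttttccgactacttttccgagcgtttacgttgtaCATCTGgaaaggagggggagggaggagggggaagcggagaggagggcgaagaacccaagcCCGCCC
Itga1: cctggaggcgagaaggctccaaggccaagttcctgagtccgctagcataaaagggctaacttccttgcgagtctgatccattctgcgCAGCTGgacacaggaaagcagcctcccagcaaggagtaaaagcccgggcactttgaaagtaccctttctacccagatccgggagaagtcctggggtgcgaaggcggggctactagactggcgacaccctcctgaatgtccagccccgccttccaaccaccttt

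Itgb6 and Itga8, which were higher in TRAP RNA, held 3 and 2 E boxes and none of the other motifs. Itga5 held 2 GC boxes and 1 E box, and Itga1 held 1 E box. A RefSeq window was found for 23 of the 37 members (26 windows). An E box stood in 80.8% of these windows and in 66.2% of all 32851 promoter windows of the same length, a GC box in 34.6% against 32.7%, a CCAAT box in 15.4% against 33.8%, and an AP-1 motif in 3.85% against 6.75%. No member window held the TATA box, which 12.4% of all windows did. The median GC content was 58% in the member windows and 52.4% in all windows. These matches describe letters only and carry no measurement of binding.

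Total counts ran from 3.07e+07 to 5.34e+07 per library. Fgf20 lay at 3.11 to 5.92 CPM (counts scaled by library size and composition) in TRAP het and 0.825 to 3.02 CPM in TRAP mut libraries, and at 0.382 to 1.72 CPM in pre-TRAP het and 0.139 to 0.289 CPM in pre-TRAP mut libraries. The groups did not overlap in either kind of RNA, although the differences did not pass the adjusted test over all genes (adjusted p = 0.188 and 0.837, edgeR), and the labels do not give which part of the gene the alleles remove. The summed CPM of 11 neuron markers was 3260 to 5970 in TRAP and 619 to 955 in pre-TRAP libraries. That of 10 otic epithelium markers was 879 to 1140 against 602 to 980. No marker of the lists used was at 0 in every TRAP library. Replicates are separate pools by the labels, but whether they came from separate litters is not given, so p-values measure the spread between pools.

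The first question is which subunits were carried by tagged ribosomes of the Fgf20-Cre lineage more or less than in the whole tissue. Of the 37 members, 34 had enough counts to be tested in TRAP against pre-TRAP RNA; Itgad, Itgam and Itgax did not. In edgeR's quasi-likelihood test, with Benjamini-Hochberg adjustment over 24242 genes and a threshold of 0.05, 4 members were higher in TRAP RNA and 21 lower, where 27.9% of all genes tested were higher and 31.2% lower. At an unadjusted p under 0.05, 26 of the 34 passed, where 62.7% of all genes did. The median log2 fold change was -0.95 over the members tested and -0.01 over all genes. The 4 that rose were Itgb6, Itgal, Itgb4 and Itga8. Taking laminins and integrins apart, 0 laminin genes rose and 7 of 11 fell (median -1.08), while 4 of 23 integrin genes tested rose and 14 fell (median -0.94). The shares over all genes, 27.9% higher and 31.2% lower, also stand beside the counts by role below. The CPM of all 16 TRAP libraries lay on one side of all 8 pre-TRAP libraries for 9 members, above them for Itgb6 and below them for Itga1, Itga2b, Itga5, Itga9, Itgav, Itgb1, Itgb7 and Lamc1. Over all genes tested, 6.33% lay entirely higher and 8.32% entirely lower. In bulk RNA, fewer cells of a type and less RNA per cell cannot be told apart.

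**Figure D1:**
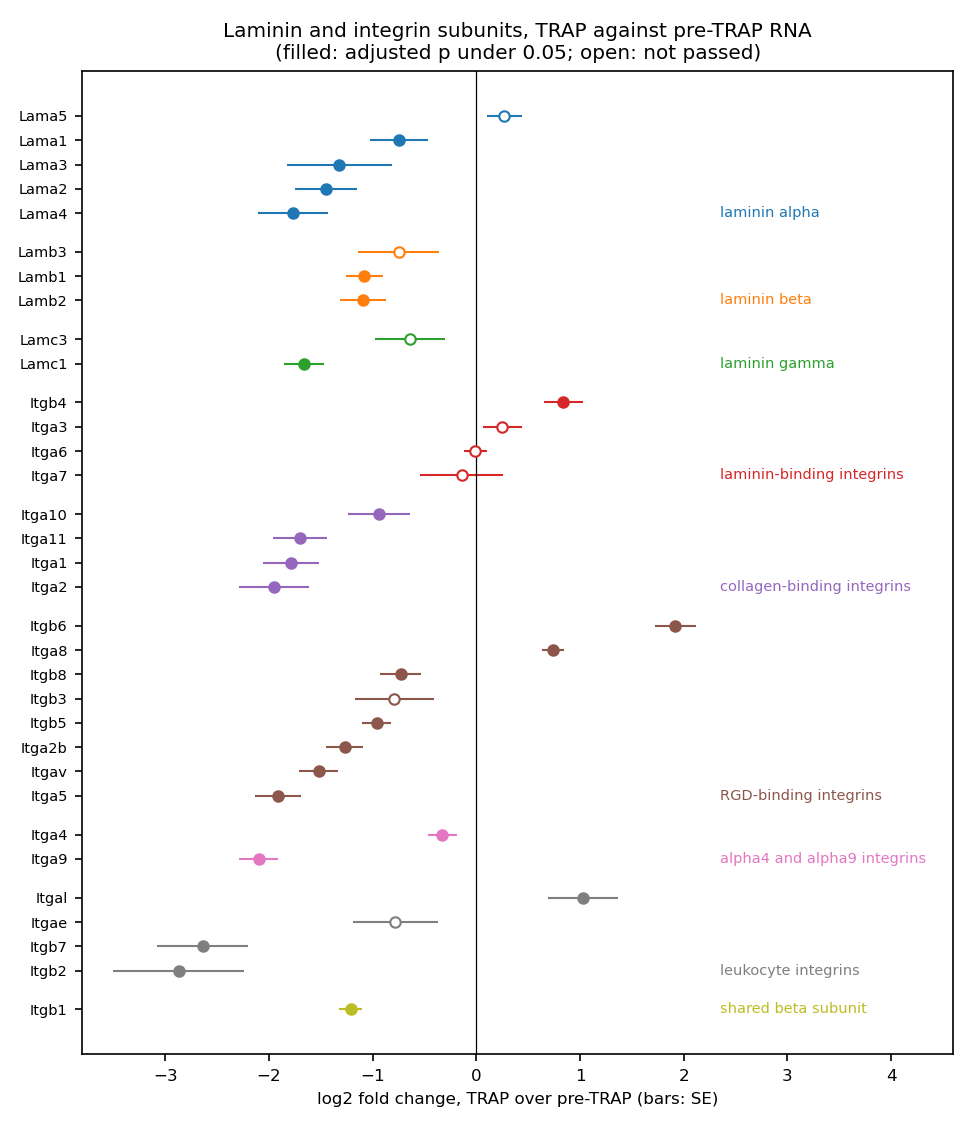
Log2 fold change of 33 of the 34 members tested, TRAP over pre-TRAP (x axis), with bars of 1 SE, ordered by role; filled points passed an adjusted p under 0.05 in edgeR. Itgb6 sat farthest to the right at 1.92 and the leukocyte subunits Itgb2 and Itgb7 farthest to the left. The points of Itga3, Itga6, Itga7 and Itgb4, listed as laminin-binding, lay between -0.14 and 0.84.

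Among the laminin alpha chains, 4 of 5 were lower in TRAP RNA and Lama5 was not called. Lama4, the alpha chain of vessel and mesenchymal matrix, ranged from 1.98 to 22.6 CPM (median 4.79) in TRAP and from 15.9 to 29.4 CPM (median 21.4) in pre-TRAP libraries. The groups overlapped through TRAP libraries 5 and 6, at 17.1 and 22.6 CPM. The difference, as a log2 fold change with its SE, was -1.77 ± 0.34 (adjusted p = 7.88e-05, edgeR). Lama2, the alpha chain best known from muscle and peripheral nerve, lay at 0.297 to 2.92 CPM (median 0.689) in TRAP and 2.23 to 3.7 CPM (median 2.51) in pre-TRAP libraries, a log2 fold change of -1.45 ± 0.30 (adjusted p = 0.000156). Libraries 5 and 6 again reached the pre-TRAP range. Lama3, a chain of epithelial anchoring laminin, had 59 counts in all over the TRAP and 69 over the pre-TRAP libraries, and its log2 fold change was -1.32 ± 0.51. That call was lost without pre-TRAP library 17, 20 or 24 (adjusted p = 0.11, 0.0845 and 0.0615), without the experiment covariate, in experiment 1 alone (-0.61) and in het libraries alone (-0.86). Lama1, the chain of early embryonic basement membranes, fell by 0.75 ± 0.28 on the log2 scale (adjusted p = 0.0236). The call for Lama1 was lost without library 17 (-0.68, adjusted p = 0.0545) or 24 (-0.65, adjusted p = 0.0649), without the experiment covariate, and in either experiment or either genotype alone (adjusted p = 0.0513 to 0.273).

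Lama5, the broadly expressed alpha chain of mature epithelial basement membranes, lay at 2.38 to 5.38 CPM (median 3.62) in TRAP and 2.34 to 5.33 CPM (median 2.45) in pre-TRAP libraries. The ranges coincided, and the log2 fold change of 0.27 ± 0.17 did not pass (adjusted p = 0.164). It was -0.10 in het libraries alone and 0.66 in mut libraries alone, where it passed (adjusted p = 0.0205). The pre-TRAP het libraries stood at 4.77, 5.33, 2.48 and 2.71 CPM and the pre-TRAP mut libraries at 2.39, 2.42, 2.34 and 2.38 CPM. The test of whether the genotypes differed in this contrast is given with the genotype comparisons.

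Both beta chains with sizeable counts fell. Lamb1, the beta chain of most embryonic laminins, ranged from 6.96 to 33.3 CPM (median 12.7) in TRAP and from 23.9 to 35.4 CPM (median 30.2) in pre-TRAP libraries, a log2 fold change of -1.08 ± 0.18 (adjusted p = 1.15e-05). Lamb2, the beta chain of synaptic and vascular laminins, gave 2.47 to 12.2 CPM (median 5.05) against 8.86 to 16.8 CPM (median 10.9), a log2 fold change of -1.09 ± 0.22 (adjusted p = 9.26e-05). In both genes the overlap came from among the 4 TRAP libraries highest in mesenchyme markers, which are given below. The other 12 TRAP libraries reached 14.8 CPM for Lamb1 and 6.05 CPM for Lamb2. Lamb3, the partner of Lama3 in epithelial anchoring laminin, was at or below 0.415 CPM everywhere and was not called (-0.75 ± 0.39).

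Lamc1, the gamma chain shared by most laminins, showed the clearest separation of the laminin genes. Its values were 2.95 to 13.1 CPM (median 5.83) in TRAP libraries and 15.9 to 25.2 CPM (median 21.1) in pre-TRAP libraries, so every TRAP library lay below every pre-TRAP library. The log2 fold change was -1.66 ± 0.19, a 3.15-fold lower level (adjusted p = 3.19e-08). Lamc3 was at most 0.705 CPM in any library and was not called (-0.64 ± 0.34).

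The integrin subunits listed as laminin-binding were not among the genes that fell. That list leaves out the shared subunit Itgb1 and the subunits listed as collagen-binding, which did fall and are described below. It therefore does not stand for laminin receptors as a class. Of Itga3, Itga6, Itga7 and Itgb4, 1 rose, 0 fell and 3 were not called, with a median log2 fold change of 0.12. Itgb4, which pairs with the alpha6 subunit in hemidesmosomes at the base of epithelia, lay at 1.14 to 3.81 CPM (median 2.50) in TRAP and at 1.03 to 2.24 CPM (median 1.46) in pre-TRAP libraries. Most TRAP libraries were above the highest pre-TRAP library, with overlap at the low end, and the log2 fold change was 0.84 ± 0.19 (adjusted p = 0.000504). In experiment 1 alone it was 0.62 and did not pass (adjusted p = 0.0993), and in experiment 2 alone it was 1.09. Itga6, the alpha subunit of that pair and of the laminin receptor with beta1, gave 8.53 to 16.5 CPM (median 13.3) in TRAP and 9.73 to 17.9 CPM (median 12.5) in pre-TRAP libraries. The ranges coincided, with a log2 fold change of -0.01 ± 0.11 (adjusted p = 0.945). Itga3, the other common epithelial laminin receptor subunit, was 1.21 to 3.94 CPM against 1.37 to 3.67 CPM (0.25 ± 0.19, adjusted p = 0.253). Itga7, the muscle laminin receptor subunit, stayed at or below 0.677 CPM (-0.14 ± 0.40).

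The beta1 subunit joins most of the alpha subunits described here. Itgb1 was measured at 77.7, 84.2, 69.7 and 62.8 CPM in the pre-TRAP het libraries and at 66.8, 80.4, 60.2 and 60.6 CPM in the pre-TRAP mut libraries. The TRAP het libraries ran from 23.7 to 35.9 CPM (median 28.0) and the TRAP mut libraries from 23.3 to 48.5 CPM (median 29.5). All TRAP libraries were below all pre-TRAP libraries, and the log2 fold change was -1.21 ± 0.11, a 2.32-fold lower level (adjusted p = 2.95e-10).

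All 4 collagen-binding alpha subunits fell, with a median log2 fold change of -1.74. Itga2, a collagen receptor subunit of epithelia and platelets, was 0.0523 to 0.684 CPM (median 0.239) in TRAP and 0.677 to 1.76 CPM (median 1.34) in pre-TRAP libraries, touching at a single value (-1.95 ± 0.34, adjusted p = 1.99e-05). Itga1, a collagen receptor subunit of vessels and mesenchyme, whose upstream sequence is printed above, was 0.295 to 4.40 CPM (median 1.93) against 5.52 to 9.51 CPM (median 6.56). The groups did not overlap, and the log2 fold change was -1.79 ± 0.27 (adjusted p = 2.49e-06). Itga11, carried by fibroblasts, and Itga10, carried by cartilage cells, had log2 fold changes of -1.70 ± 0.26 and -0.94 ± 0.30 (adjusted p = 3.62e-06 and 0.00812). The call for Itga10 was lost in experiment 1 alone (-1.04, adjusted p = 0.0802) and in mut libraries alone (-0.62, adjusted p = 0.196).

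The subunits that bind the RGD motif of fibronectin, vitronectin and latent TGF-beta moved in both directions: 2 of 8 rose, 5 fell and Itgb3 was not called. Itgb6, the beta subunit that epithelia use with alphav to activate latent TGF-beta, was at 1.10, 0.425, 0.931 and 0.902 CPM in the pre-TRAP het libraries and at 0.693, 1.01, 0.653 and 0.645 CPM in the pre-TRAP mut libraries. In the TRAP libraries it was 1.91 to 4.51 CPM (median 3.14) in het and 1.35 to 3.94 CPM (median 3.25) in mut. Every TRAP library was above every pre-TRAP library, and the log2 fold change of 1.92 ± 0.20, 3.78-fold higher, was the largest rise among the members (adjusted p = 5.18e-09). It was 2.21 in experiment 1 and 1.69 in experiment 2, 1.89 in het and 1.98 in mut libraries. Itga8, the alpha subunit that binds nephronectin with beta1, was 8.13 to 14.8 CPM (median 11.1) in TRAP and 5.56 to 8.53 CPM (median 6.74) in pre-TRAP libraries. Its ranges met at about the highest pre-TRAP value, and the log2 fold change was 0.74 ± 0.11 (adjusted p = 3.54e-06).

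The partner of Itgb6 went the other way. Itgav, the alphav subunit that also joins beta3, beta5, beta8 and beta1, was 2.12 to 8.77 CPM (median 3.59) in TRAP and 8.97 to 14.7 CPM (median 11.4) in pre-TRAP libraries, without overlap (-1.52 ± 0.19, adjusted p = 1.65e-07). Itga5, the fibronectin receptor subunit, was 1.39 to 5.67 CPM (median 2.85) against 9.11 to 14.8 CPM (median 11.8), again without overlap. Its log2 fold change was -1.91 ± 0.22, 3.75-fold lower (adjusted p = 2.48e-08). Itga2b, the platelet fibrinogen receptor subunit, fell by 1.27 ± 0.18, Itgb5 by 0.96 ± 0.14 and Itgb8 by 0.73 ± 0.20 on the log2 scale (adjusted p = 6.89e-07, 1.56e-06 and 0.00281). The call for Itgb8 was lost in experiment 1 alone (-0.53, adjusted p = 0.108). Itgb3, the platelet partner of Itga2b, had a log2 fold change of -0.79 ± 0.38 that did not pass (adjusted p = 0.0794). It was -1.46 in experiment 1 alone, where it passed (adjusted p = 0.0212), and 0.05 in experiment 2 alone, and it passed with limma voom (-1.09, adjusted p = 0.00535).

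Itga9, the receptor subunit for tenascin-C, VCAM-1 and lymphatic ligands, had the smallest adjusted p of the members. It lay at 2.34 to 9.08 CPM (median 3.66) in TRAP and at 11.5 to 25.9 CPM (median 18.4) in pre-TRAP libraries, without overlap, a 4.28-fold lower level (log2 fold change -2.10 ± 0.19, adjusted p = 2.75e-10). Itga4, its closest relative and a VCAM-1 receptor of migrating cells, was 2.05 to 4.68 CPM (median 2.68) against 2.82 to 4.56 CPM (median 3.56). The ranges overlapped, and the log2 fold change of -0.33 ± 0.14 passed narrowly (adjusted p = 0.0434) and was lost in experiment 1 alone, experiment 2 alone, either genotype alone and with no filter on low counts (adjusted p = 0.126). It was also lost in 16 of the 24 fits that left out 1 library, the value being -0.23 without pre-TRAP library 19 (adjusted p = 0.206).

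Leukocyte integrin genes were near the floor of the counts. Itgb7 had 48 counts over the 16 TRAP and 141 over the 8 pre-TRAP libraries, 0 to 0.238 CPM against 0.310 to 0.964 CPM without overlap (-2.64 ± 0.44, adjusted p = 1.03e-05). By experiment, the log2 fold change of Itgb7 came to -3.41 in the first and -1.83 in the second. Itgb2, the common beta subunit of the leukocyte group, had 17 and 67 counts, and its median was 0 CPM in TRAP and 0.257 CPM in pre-TRAP libraries (-2.87 ± 0.63, adjusted p = 0.000293). Itgal, the lymphocyte alpha subunit that pairs with beta2, was 0.0893 to 1.23 CPM (median 0.650) in TRAP and 0.0716 to 0.444 CPM (median 0.302) in pre-TRAP libraries. The log2 fold change was 1.03 ± 0.34 (adjusted p = 0.0118), opposite in sign to that of Itgb2, and it was 1.64 in het libraries alone and 0.49 in mut libraries alone, where it did not pass (adjusted p = 0.364), nor did it in experiment 1 alone (1.07, adjusted p = 0.175). Itgae, the partner of beta7 in intraepithelial lymphocytes, was not called (-0.78 ± 0.41). Itgad, Itgam and Itgax had 41, 48 and 59 counts over all 24 libraries.

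**Figure D2:**
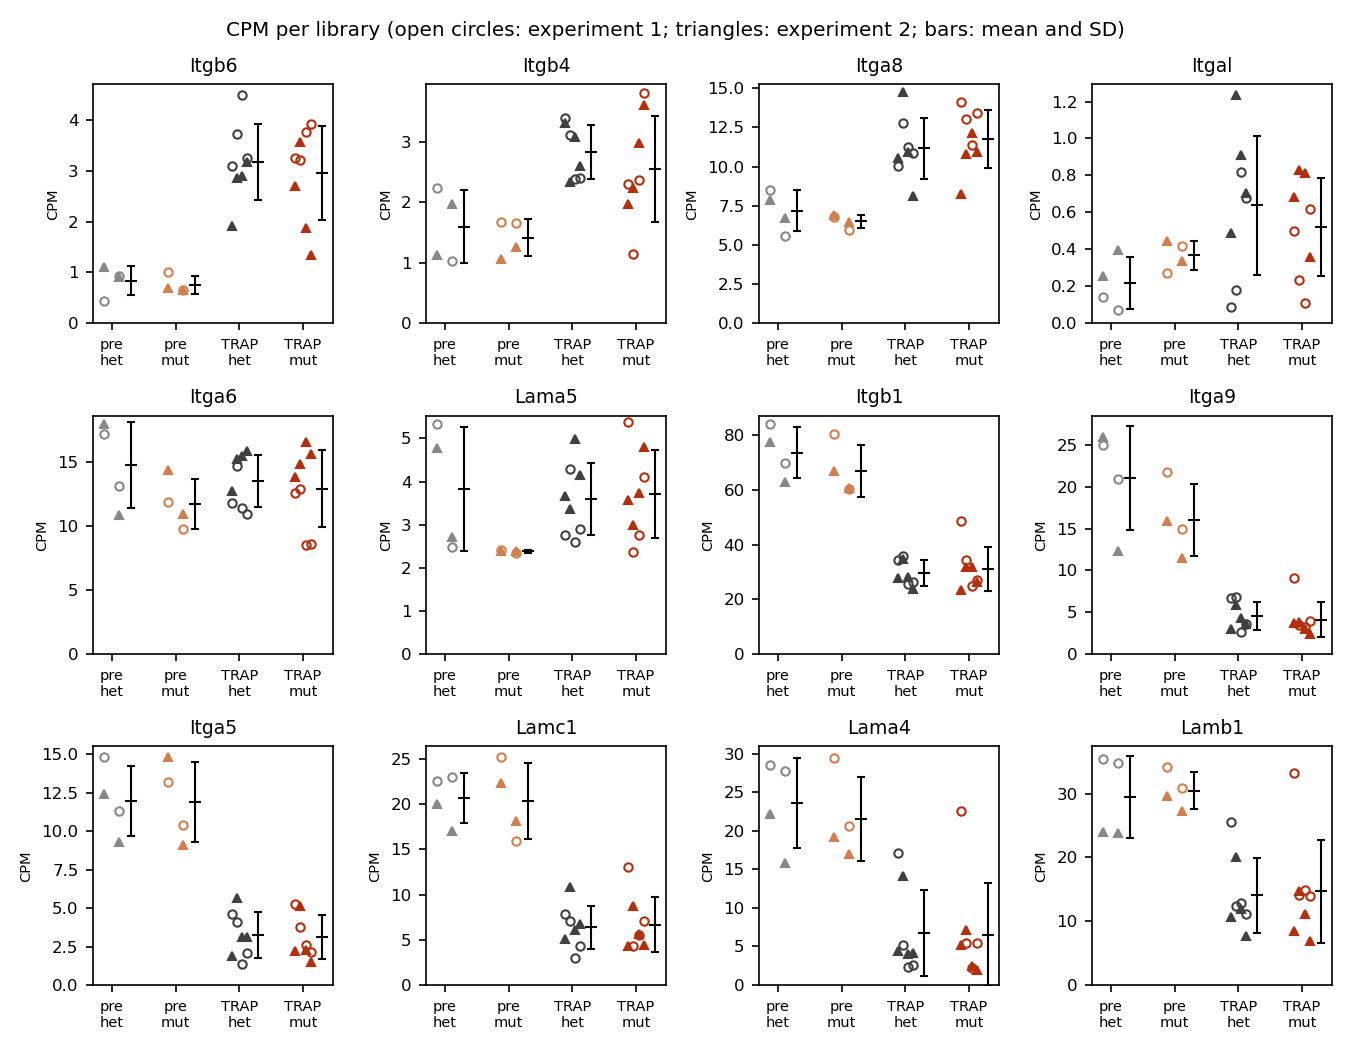
CPM of 12 members in every library (y axis, linear, from 0), by group; open circles are experiment 1, triangles experiment 2, and bars give the mean and SD. Itgb6 lies higher in every TRAP than in every pre-TRAP library, Itga6 and Lama5 share their range, and Itgb1, Itga9, Itga5 and Lamc1 lie lower in every TRAP library.

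Genes that work with these subunits were taken as 4 lists. Over all genes tested in this contrast, 27.9% were higher and 31.2% lower in TRAP RNA. Of 23 basement membrane partners, 1 rose in TRAP RNA and 17 fell (median log2 fold change -1.15), with Fbln2 at -2.41, the laminin linker Nid1 at -2.27, Col15a1 at -2.06 and Tinagl1 at -1.87. The gene that rose was Ntn4, a netrin that binds laminin networks (0.80 ± 0.28, adjusted p = 0.0174). Another list held 15 genes: laminin receptors that are not integrins, genes that glycosylate dystroglycan, the sarcoglycans Sgcb, Sgcd and Sgce, and Cd151. Of these, 2 rose and 10 fell (median -0.62), with Sdc1 at -1.67, the ribosomal protein gene Rpsa at -1.16, Pomt2 at -0.96 and Sdc4 at -0.95. The tetraspanin Cd151, a partner of laminin-binding integrins, was among those higher (0.45 ± 0.15, adjusted p = 0.0101). Of 20 other integrin ligands, 2 rose and 14 fell (median -1.33). Spp1, which encodes osteopontin, an RGD ligand, rose by 2.73 ± 0.14 (adjusted p = 9.11e-15), while Tgfbi, Vcam1 and Mfge8 fell by 2.52, 2.44 and 2.03 on the log2 scale.

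Of 31 integrin adaptors tested, 4 rose and 22 fell (median -0.72), where 27.9% of all genes were higher and 31.2% lower. The actin linker Parvb was higher (2.08 ± 0.17, adjusted p = 5.83e-11), and Dab2, Tns2 and Tns1 had log2 fold changes of -2.83, -2.06 and -1.85. Ilk, an adaptor of the same complex, could not be tested, with 0 counts in 8 of 16 TRAP libraries and 1 of 8 pre-TRAP libraries. Npnt and Fn1, the ligands of Itga8 and Itga5, were picked after their values were seen: Npnt fell by 0.92 ± 0.13 (adjusted p = 9.88e-07), opposite in sign to Itga8, and Fn1 was not called over all libraries (-0.38 ± 0.55, adjusted p = 0.567). Fn1 reached 276 and 226 CPM in TRAP libraries 6 and 5, where the pre-TRAP libraries lay at 46.5 to 88.6 CPM, and without TRAP libraries 3, 4, 5 and 6 its log2 fold change was -2.02. That fit leaves out the libraries with these high values, so a lower value follows by construction.

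Markers of other cell types differed between the 2 kinds of RNA as well, where 27.9% of all genes were higher and 31.2% lower in TRAP RNA. All 11 neuron markers rose (median log2 fold change 2.63), as did 6 of 9 otic epithelium markers tested, with 2 lower (median 0.72). All 11 periotic mesenchyme markers fell (median -2.13, summed CPM 104 to 804 in TRAP and 816 to 1330 in pre-TRAP libraries). All 11 endothelium markers fell (median -2.44, 9.77 to 29.2 CPM against 77.8 to 95.2 CPM). So did 11 of 12 macrophage markers (median -2.68, 2.69 to 8.26 CPM against 26.0 to 42.4 CPM), 7 of 8 mural cell markers (32.5 to 123 CPM against 91.9 to 162 CPM) and 6 of 9 cartilage markers. The cartilage sums overlapped, at 560 to 6900 CPM in TRAP and 2490 to 4940 CPM in pre-TRAP libraries, and Acan, Col2a1 and Col11a1 were not called. Of 5 platelet markers tested 2 fell, and the sum over the list was 1.29 to 5.14 CPM against 6.19 to 9.79 CPM. Of 7 Schwann cell markers 5 fell and 2 rose (61.9 to 96.1 CPM against 229 to 325 CPM), and of 8 skeletal muscle markers 7 fell and 1, Actc1, rose. The sum over the muscle list, in which Actc1 had the highest CPM in every TRAP library, was 17.1 to 36.5 CPM in TRAP and 11.6 to 25.8 CPM in pre-TRAP libraries. Markers that were at 0 in more than 4 TRAP libraries were Spi1 of macrophages (5 libraries), Ppbp, Gp5, Gp6, Gp9 and Treml1 of platelets (6, 7, 9, 9 and 8) and Myf5 of muscle (5). The part of these cell types in the changes of the subunits was not tested.

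The 4 TRAP libraries ranked highest in mesenchyme markers were libraries 3 (het), 6 (mut), 5 (het) and 4 (mut). Their mean marker levels were 4.33, 4.32, 4.22 and 3.83 as log2(CPM + 0.5). Libraries 2 (mut) and 9 (het) followed closely at 3.70 and 3.69, so the cut was made by rank and not at a gap. For Lama4, Lamb2, Lamc1, Itga1 and Itga5 the 4 top-ranked libraries held all 4 of the highest TRAP values. Lama4 was 7.12 to 22.6 CPM in them and 1.98 to 5.48 CPM in the other 12, and Lamc1 was 7.86 to 13.1 CPM against 2.95 to 7.11 CPM. Itga5 was 4.64 to 5.67 CPM against 1.39 to 4.09 CPM. For another 11 members they held 3 of the 4 highest values, and for Itga6, Itga2b, Itgb6 and Itgb8 none of them. How often this held over all genes was not counted, so it is not read as a trait of the subunits. Itgb6 was 2.86 to 3.58 CPM in these libraries and 1.35 to 4.51 CPM in the others. Without the 4 libraries, a fit added after the data were seen, 4 members were higher and 22 lower in TRAP RNA, where 28.6% and 32.6% of all genes were. Where these libraries held a gene's highest TRAP values, leaving them out lowers its TRAP level by construction. Such shifts, and calls gained through them, are therefore not a separate result. The fold moved by more than 1.5 times for Lama4, whose log2 fold change went from -1.77 to -2.55, for Itga2, from -1.95 to -2.55, and for Itgb2, from -2.87 to -4.02 on few counts. That of Lama2 went from -1.45 to -2.01, that of Lama1 from -0.75 to -1.13, and that of Itgb6 from 1.92 to 1.88. Itgb3 passed in that fit (-1.16, adjusted p = 0.0147), and Itga4 no longer did (adjusted p = 0.0781).

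**Figure D3:**
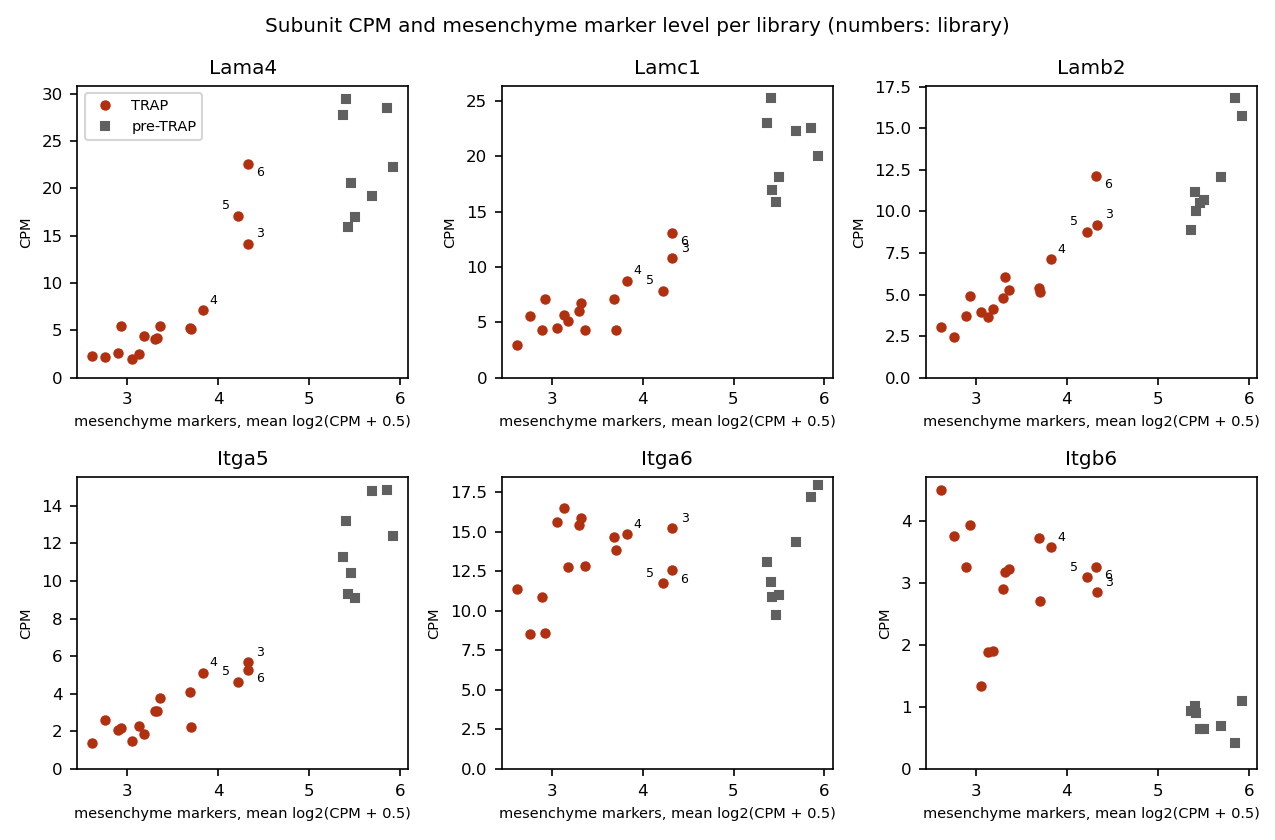
CPM of 6 members (y axis) against the mean level of 11 periotic mesenchyme markers as log2(CPM + 0.5) (x axis) in each library; circles are TRAP, squares pre-TRAP, and the numbers mark the 4 TRAP libraries highest in these markers. Lama4, Lamc1, Lamb2 and Itga5 are highest in the numbered libraries among the TRAP libraries, and Itga6 and Itgb6 are not.

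The second question is whether loss of Fgf20 changed these genes in cells of its own lineage. In TRAP mut against TRAP het libraries, 30 members were tested and none was called in edgeR, where 4 of 21577 genes tested were higher (0.0185%) and 12 lower (0.0556%). At an unadjusted p under 0.05 the count was also 0 of 30, where 3.77% of all genes passed, and DESeq2 and limma voom called 0 members as well. The median log2 fold change was -0.05 over the members and -0.01 over all genes, and the members ran from -0.41 to 0.30. The 7 members too low to test were Lama3, Lamb3, Itgad, Itgam, Itgax, Itgb2 and Itgb7. Fgf20 itself did not pass between genotypes in TRAP or pre-TRAP RNA (adjusted p = 0.188 and 0.837, edgeR). The lack of calls therefore does not show that the members were unchanged.

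The 6 members with the smallest p in TRAP RNA, none past the threshold, were all integrins. Itga2b was 0.844 to 1.66 CPM (median 1.43) in het and 0.628 to 1.87 CPM (median 1.05) in mut libraries, with overlapping ranges and a log2 fold change of -0.37 ± 0.24 (unadjusted p = 0.134, adjusted p = 1.0, edgeR). Itgb5 was 6.51 to 12.2 CPM against 5.72 to 12.2 CPM (-0.18 ± 0.17), and Itgb8 was 1.63 to 3.66 CPM against 0.715 to 3.13 CPM (-0.26 ± 0.25). Itgb3, Itga9 and Itgb4 had log2 fold changes of -0.41 ± 0.48, -0.20 ± 0.25 and -0.16 ± 0.21. The het and mut ranges of all 6 overlapped. Of the members with the largest differences between the kinds of RNA, Itgb6 was -0.13 ± 0.19 and Itgb1 0.05 ± 0.14 between genotypes, and Itga6 was -0.09 ± 0.12. The mean levels of the 10 marker lists did not differ between genotypes in TRAP RNA past the threshold in an exact two-sided permutation test (adjusted p = 0.922 for every list); the lowest unadjusted exact permutation p was 0.101, for neurons, at 0.163 higher in mut. A list's mean can hide members that differ in opposite directions. Of 9 otic epithelium markers tested, 4 passed an unadjusted p under 0.05, where 3.77% of all genes did, and 0 passed the adjusted test. Sox2, Fbxo2 and Epcam had log2 fold changes of -0.47, -0.36 and -0.26, and Lmx1a had 0.56 (lowest adjusted p = 0.805, edgeR). Of 11 neuron markers 2 passed unadjusted, Snap25 at 0.31 and Neurod1 at 0.33.

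In pre-TRAP RNA the same comparison, mut against het over 4 and 4 libraries, also called none of 33 members tested, by edgeR, DESeq2 or limma voom, where 0 of 21954 genes were higher and 1 (0.00455%) lower. At an unadjusted p under 0.05, 3 of 33 members passed, where 4.77% of all genes did. The median log2 fold change was -0.14 over the members and -0.03 over all genes. Itga3 was 3.67, 3.15, 2.67 and 2.23 CPM in het and 1.83, 2.27, 2.08 and 1.37 CPM in mut libraries, overlapping by 1 library (-0.64 ± 0.24, unadjusted p = 0.0171, adjusted p = 0.837, edgeR). Lama5, with its values given above, had a log2 fold change of -0.68 ± 0.26 (unadjusted p = 0.0232, adjusted p = 0.837, edgeR). Its highest mut value lay only just below its lowest het value. How many of all genes separated in this way was not counted, so the separation is not read as a trait of Lama5. With libraries left out in turn the log2 fold change of Lama5 ran from -0.86 without library 21 to -0.39 without library 19, a het library. Itga10 was 4.43, 5.13, 3.06 and 2.59 CPM in het and 1.69, 2.77, 2.97 and 2.80 CPM in mut libraries, with overlap (-0.58 ± 0.26, unadjusted p = 0.0417, adjusted p = 0.837). Itga1 at -0.38 ± 0.19 and Itgal at 0.85 ± 0.45 were also among the members with the smallest p. With 4 against 4 libraries the exact two-sided permutation test of a marker list cannot go below p = 0.0286, or 0.286 for a single list adjusted over 10 lists, so it could call no list on its own between pre-TRAP genotypes. Gene by gene, 4 of 11 periotic mesenchyme markers passed an unadjusted p under 0.05 there, against the 4.77% of all genes. Pou3f4, Tbx18 and Twist1 had log2 fold changes of -0.40, -0.51 and -0.60, and Osr2 had 0.54 (adjusted p = 0.837 for each, edgeR). Their part in the values of the subunits was not tested.

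Whether a genotype difference differed between TRAP and pre-TRAP RNA was tested as an interaction over all 24 libraries. None of 34 members was called by edgeR, DESeq2 or limma voom, nor was any of the 24242 genes by edgeR. At an unadjusted p under 0.05, 1 member passed, where 1.25% of all genes did: Lama5, with a difference of 0.73 ± 0.33 on the log2 scale (unadjusted p = 0.0351, adjusted p = 1.0). Itgal followed at -1.17 ± 0.68 and Itga3 stood at 0.55 ± 0.37. The differences between het and mut libraries in the TRAP contrast given above for Lama5 and Itgal are thus not past the threshold. The genotype by experiment interaction in TRAP RNA called none of 30 members and passed none at an unadjusted p under 0.05, where 2.11% of all genes did, and again called 0 with DESeq2 and limma voom.

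**Figure D4:**
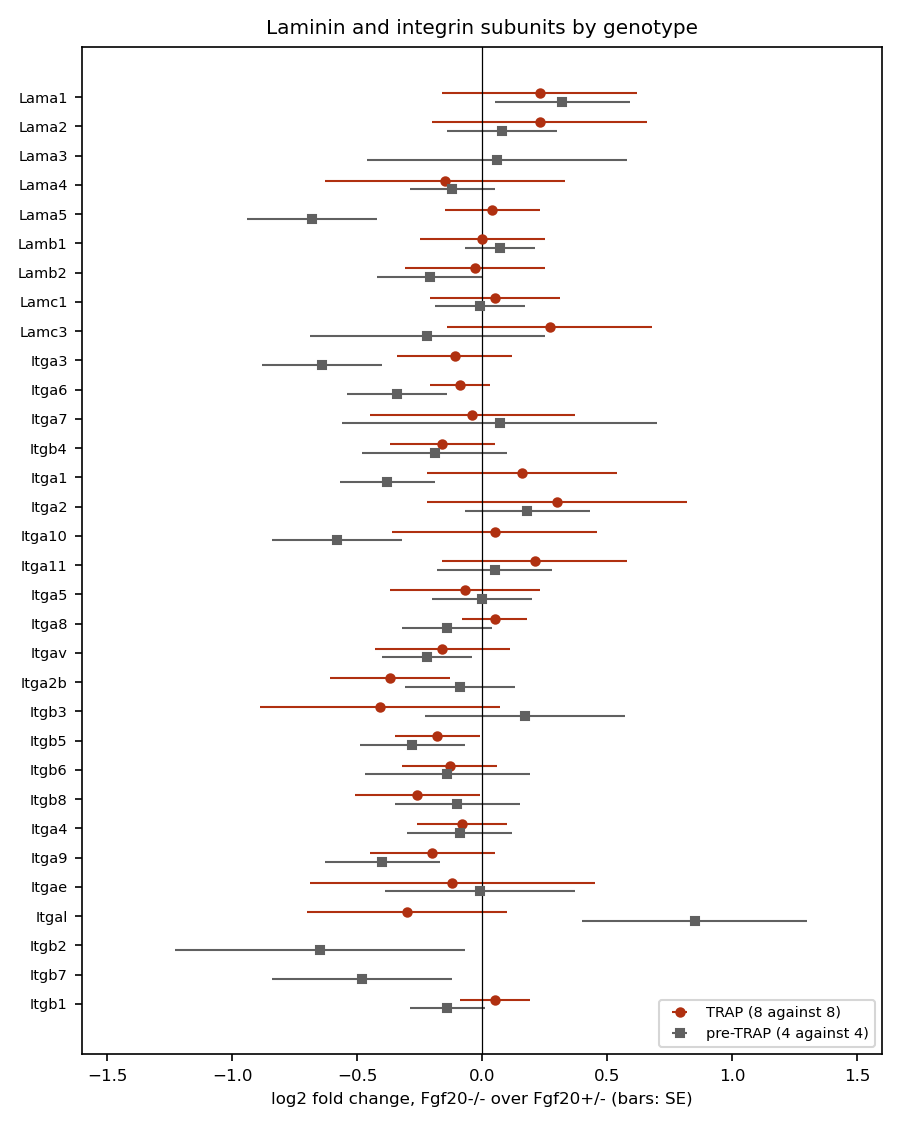
Log2 fold change of the tested members but 1, Fgf20-/- over Fgf20+/- (x axis), with bars of 1 SE; circles are TRAP (8 against 8 libraries) and squares pre-TRAP (4 against 4). No point passed an adjusted p under 0.05, and Lama5, Itgb2, Itga3 and Itga10 lie farthest to the left in pre-TRAP RNA, at -0.68, -0.65, -0.64 and -0.58.

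Members also varied between the 2 experiments. In TRAP RNA, 1 of 30 members tested was higher in experiment 2 and 0 lower, where 14.1% and 8.81% of all genes were. Itga6 was 8.53 to 14.7 CPM (mean 11.4 ± 2.09 SD, n = 8) in experiment 1 and 12.8 to 16.5 CPM (mean 15.0 ± 1.20, n = 8) in experiment 2, with overlapping ranges, and its log2 fold change was 0.44 ± 0.12 (adjusted p = 0.0137, edgeR). Itgb6, Itgal and Lamb1 followed at -0.46 ± 0.19, 0.92 ± 0.40 and -0.54 ± 0.25, with adjusted p of 0.0842, 0.104 and 0.123 (edgeR). In pre-TRAP RNA, 0 of 33 members were called in edgeR, where 9.74% of genes were higher and 4.97% lower in experiment 2, and 5 of 33 passed an unadjusted p under 0.05, where 28.8% of all genes did. The smallest p was that of Lama4, with a mean of 26.6 ± 4.05 CPM (SD, n = 4) in experiment 1 and 18.6 ± 2.80 CPM (SD, n = 4) in experiment 2 (-0.51 ± 0.17, adjusted p = 0.0632). Itgb3, Itgb8, Itga2 and Lamb1 followed at -1.19, 0.68, -0.69 and -0.37.

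The counts of some members can include reads of another gene. In the RefSeq annotation 19 of the 37 members overlapped another gene, and for 6 of them that gene is protein-coding: Pelo for Itga1, Cerkl for Itga4, Galk1 for Itgb4, Mettl7b for Itga7, Haspin for Itgae and Cox6a2 for Itgad. The sources used here do not give the strand setting of the counts, so reads of such pairs could not be separated, and the share they add was not tested.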

How the data were processed

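PolyA RNA of 24 mouse ventral otocyst libraries was sequenced. The authors deposited raw whole-number counts per Ensembl gene. STAR, DESeq2 and build GRCm38.p5 are named in the submitters' processing notes; tool versions, annotation, counting tool, strand setting and filters were not given in the sources used here. A symbol was found through the Ensembl identifier for 53274 of 53946 genes. Total counts were 3.07e+07 to 5.34e+07. All 68 pairs of libraries within a group differed beyond counting error (chi-square per degree of freedom 23.8 to 234).

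The counts were tested with the quasi-likelihood F test of edgeR 4.0.16 under R 4.3.3, after TMM scaling (factors 0.801 to 1.14). The model held experiment as a covariate, and filterByExpr (minimum count 10) was applied over each combination of group and experiment. Genotypes were compared within the 16 TRAP and within the 8 pre-TRAP libraries, and the kinds of RNA over all 24 with genotypes weighted equally. Calls were made at a Benjamini-Hochberg adjusted p under 0.05 over all genes tested. SE is the absolute log2 fold change divided by the square root of F. CPM use the TMM factors of all 24 libraries. The fits were also run on simulated counts that held changed genes but no difference between experiments. That outcome is not given here, and no result above rests on it.

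Members and lists were chosen with earlier results of these data known. The values of 1 member are not reported here, and it stays in the counts and medians. CPM ranges were printed for only some of the members called. Log2 fold changes were given for every member called, the 2 largest rises and falls per role, and the 6 smallest p per genotype comparison. They were also given for up to 4 partner genes per list with a mean of at least 2 CPM. The part of the naming rule that ranked members by abundance per length was not applied, since no transcript lengths were used here. Levels are not compared between genes. Alternatives were DESeq2 size factors in edgeR, no filter, the DESeq2 1.42.0 Wald test, limma 3.58.1 voom with quality weights, each experiment or genotype alone, experiment left out as a covariate, all 24 libraries in 1 fit, mesenchyme or neuron level as a covariate, each library left out in turn, and, added after the data were seen, leaving out 4 TRAP libraries. No label ties a TRAP to a pre-TRAP library, so no pairs were fitted.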

Additional observations from a re-analysis of the deposited data

Results flagged for a closer look

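Single libraries that stood apart from the others of their group by Dixon's test were found for 15 of 136 combinations of member and group; chance marks about 1 in 20. Of these, 9 were the highest value of TRAP mut library 6. There Lama4 was at 22.6 CPM, where the other 7 libraries reached 7.12 CPM, Lamb1 at 33.3 (others up to 14.8), Itgb1 at 48.5 (34.4), Itga9 at 9.08 (3.96), Itgav at 8.77 (4.30), Itgb5 at 12.2 (8.66), Itga10 at 4.45 (1.80), Lama2 at 2.92 (1.33) and Lama1 at 1.65 CPM (0.712). Library 6 is 1 of the 4 TRAP libraries with the most mesenchyme marker RNA.

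In TRAP het library 9, Itga4 was highest at 4.68 CPM (others up to 2.92). Itgae was highest in TRAP mut library 2 at 0.685 CPM (0.302) and in pre-TRAP mut library 24 at 0.449 CPM (0.392). Itgb6 was highest in pre-TRAP mut library 20 at 1.01 CPM (0.693), and Itga10 lowest in pre-TRAP mut library 18 at 1.69 CPM (others from 2.77). Itgb2 was highest in TRAP mut library 4 at 0.0712 CPM (0.0311), which rests on at most 3 counts.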

How the results depend on the processing

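No member was called between genotypes, or in either interaction, under any alternative run. TRAP against pre-TRAP gave 2 members higher and 16 lower in experiment 1 alone, where 20.3% and 25.3% of all genes were, against 4 and 21 in the fit of all libraries. It gave 4 to 5 higher and 18 to 22 lower as each library was left out (18 without library 17), where 25% to 29.9% and 28.3% to 31.7% of all genes were; DESeq2 size factors gave 4 and 21. Between experiments in TRAP RNA, members higher were 3 with no filter, 3 with limma voom, 2 without the 4 mesenchyme-rich libraries and 1 to 2 as each library was left out (2 without library 6), and members lower were 1 with no filter, 1 with DESeq2, 1 with limma voom, 2 without the 4 libraries and 0 to 1 as each was left out (1 without library 3 or 4). In pre-TRAP RNA, members higher were 1 with no filter and 0 to 1 leaving out libraries (1 without library 19), and members lower were 1 with DESeq2 size factors, 1 with DESeq2, 3 with limma voom and 0 to 1 leaving out libraries (1 without library 21 or 22). Lama4 in pre-TRAP RNA then passed (-0.53, adjusted p = 0.023 with DESeq2). The cause was not tested. In the main fit between experiments, 14.1% of all genes were higher and 8.81% lower in TRAP RNA. The shares in pre-TRAP RNA were 9.74% and 4.97%. Shares of all genes under these alternatives are not given here, so the member counts are not read as a trait of the subunits.

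Signs that reversed all belonged to members that had not passed. With the neuron level as a covariate, Itgb3 was 0.07 and Itga9 0.05 between TRAP genotypes, and Itga9 was 0.01 in experiment 1 alone. In TRAP against pre-TRAP, Itgb3 was 0.05, Itga7 0.39 and Itga6 0.21 in experiment 2 alone, Itga6 0.14 in mut libraries alone, Lama5 -0.10 and Itga3 -0.02 in het libraries alone, and Itga6 0.01 without the experiment covariate. Leaving out libraries, Itga7 ran from -0.35 to 0.21 and Itga6 from -0.09 to 0.11. Called members that lost their call under some alternative were Itgb4, Itgb8, Itga10, Itgal, Lama1, Lama3 and Itga4. Lama1 lost it also without library 17 or 24, and Lama3 without 17, 20 or 24. With limma voom, Itgb3 and Itgae passed (-1.09 and -1.06). No paired analysis was possible because no replicate number is shared between groups. Genes under about 0.5 CPM rest on few counts, and differences there were often not detectable.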
